A study of Mus musculus with 4 samples.

Results

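FGF receptors, a ligand and the genes induced by FGF signalling were measured by bulk RNA sequencing in reticular stromal cells sorted from mouse femurs. The set was chosen by name, with earlier results of these data known. It held 10 genes of the 17230 in the count table: Fgfr1, Fgfr2, Fgfr3, Fgf7, Spry1, Spry2, Spry4, Dusp6, Etv4 and Etv5. All 10 passed the filter on low counts and were among the 14330 genes tested, Etv4 only through its level in 1 of the groups. The cells came from mice at postnatal day 21 and carried Cxcl12-GFP, which reports CXCL12-abundant reticular (CAR) cells, and a Cre-dependent tdTomato at the Rosa26 locus. A tamoxifen pulse at embryonic day 12.5 switched tdTomato on for good in cells that then expressed the Cre, and in their descendants. In the Hes1-derived group the Cre was CreER at 1 Hes1 allele, and in the Fgfr3-derived group it was an Fgfr3-iCreER whose label gives no allele. All animals were heterozygous at Cxcl12 for GFP. By its title the study asks which CAR cells descend from the fetal perichondrium and which from chondrocytes, and the groups compared here stand for those origins.

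Each group had 2 libraries, Hes1-derived replicates 1 and 3 and Fgfr3-derived replicates 2 and 3. The labels do not say whether a library was 1 animal or a pool, so the tests measure only the spread between these libraries. The cell type labels name GFP and tdTomato as the sort marks, while the extraction protocol names tdTomato alone. That protocol also names a loading for single-cell capture, but the title and design describe bulk libraries, and the tables hold 1 column per library and were read as bulk. Libraries held 22745128 to 26804832 counted reads, and levels are given as CPM, reads relative to the library total after trimmed-mean (TMM) scaling. Cxcl12 was abundant in every library, at 4180 to 9764 CPM, and all 12 reticular stroma markers were detected. Blood-cell RNA was present too. Of the blood lists, summed over the genes that had a row, neutrophil markers (7 genes, none called) had the largest sums, at 24602 and 28962 CPM in Hes1-derived cells. In Fgfr3-derived cells they summed to 8175 and 20158 CPM. The globins Hba-a1 and Hbb-bt of the erythroid list and Ly6g of the neutrophil list had no row, so the sums do not rank all blood RNA. For the counts of markers that follow, the edgeR rule given below called 5.24% of all tested genes higher and 6.56% lower. Pan-leukocyte markers (10 genes) summed to 5560 and 6458 CPM in Hes1-derived cells, compared with 1542 and 3249 CPM, and 6 of the 10 were higher in Hes1-derived cells, with none lower. B lymphocyte markers (8 genes, all higher in Hes1-derived cells) summed to 2286 and 2128 against 314 and 555.01 CPM, and erythroid markers (6 genes, 4 higher) to 5317 and 2967 against 716 and 1124 CPM. The reticular stroma markers summed to 12812 and 8221 against 18554 and 13360 CPM, and osteoblast markers (8 genes, 6 lower in Hes1-derived cells) to 4765 and 4744 against 27226 and 30754 CPM. Pericyte markers (6 genes, 5 lower) summed to 49.8 and 34.7 against 123 and 125 CPM. The remaining pericyte marker, Myh11, went the other way, at 5.45 and 1.65 against 1.22 and 0.535 CPM, and was not called. Endothelial markers (6 genes, 1 higher) summed to 103 and 108 against 33.0 and 47.3 CPM. No marker of these lists that had a row was at 0 in all libraries, and markers without a row could not be counted. In bulk RNA, fewer cells of a type and less RNA per cell cannot be told apart, and the part of these shifts in the results below was not tested, apart from the rescaled values given with them.

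FGF receptors are cell surface tyrosine kinases that bind FGF ligands together with heparan sulfate and signal through RAS to the ERK kinases. ERK signalling induces the ETS transcription factors Etv4 and Etv5 and a set of inhibitors, the Sprouty proteins and the ERK phosphatase Dusp6, which dampen the pathway in turn. In the growing skeleton Fgfr3 restrains the proliferation of growth plate chondrocytes, and Fgfr1 and Fgfr2 act in the perichondrium and the osteoblast lineage.

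Of the 10 genes, 5 were lower in the Hes1-derived cells and none was higher. The lower genes were Fgfr1, Fgfr3, Spry4, Etv4 and Etv5. Etv4 had the largest fitted difference of the 10, 18.4-fold, but with 6 and 7 reads in the Hes1-derived libraries it passed the filter only through the Fgfr3-derived group. Fgfr1 was 3.22-fold lower. Fgfr3, Spry4 and Etv5 differed by 2.21-fold to 2.49-fold. A gene is called lower or higher here at an adjusted p under 0.05 by the quasi-likelihood test of edgeR, with Benjamini-Hochberg adjustment over all tested genes. By that rule 6.56% of all tested genes were lower and 5.24% higher in Hes1-derived cells, 940 and 751 genes. At an unadjusted p under 0.05, 7 of the 10 were lower and none higher, where 16.3% of all tested genes were lower and 13.7% higher. DESeq2 called 6 lower, adding Fgfr2, and none higher, where it called 10.9% of all genes lower and 9.97% higher. The median log2 fold change of the 10 genes, Hes1-derived minus Fgfr3-derived, was −1.14, against −0.02 over all tested genes. As the set was chosen with earlier results of these data known, these shares and medians are descriptions only.

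**Figure D1:**
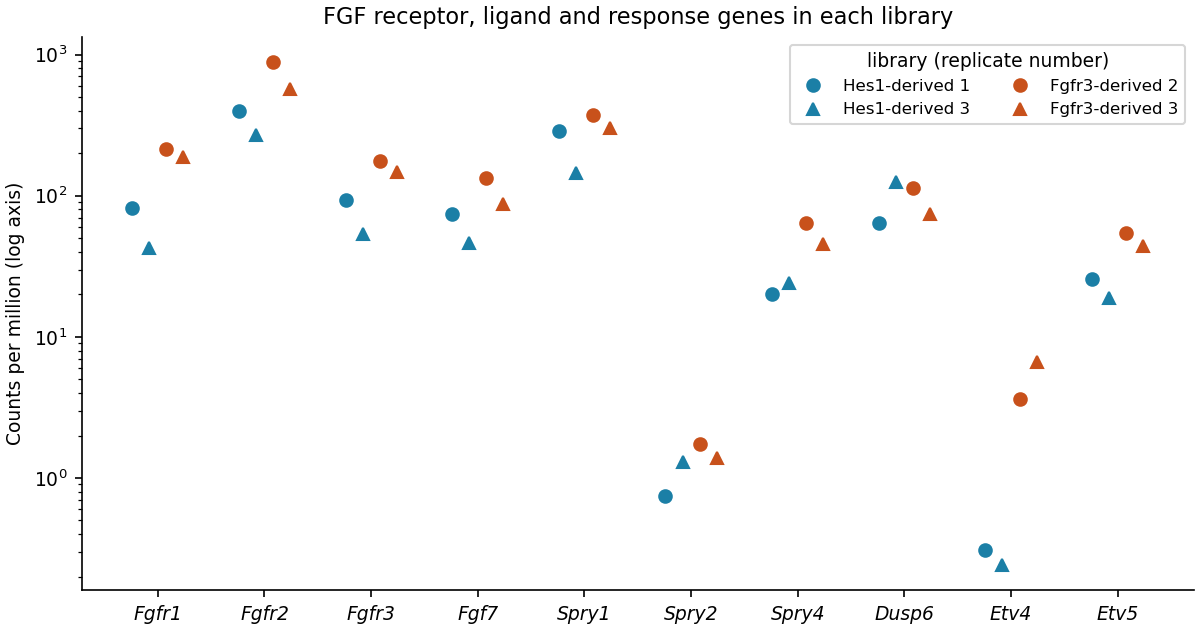
CPM on a log axis for the 10 genes in the 4 libraries, with 1 point per library, blue for Hes1-derived and orange for Fgfr3-derived cells. For 9 genes both blue points lie below both orange points, Dusp6 is the exception, and Etv4 shows the widest gap.

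In CPM, both Hes1-derived libraries lay below both Fgfr3-derived libraries for 9 of the 10 genes, which also held for 32.1% of all tested genes. The call depended on what the libraries were scaled to. With TMM scaling, 11 of the 12 reticular stroma genes themselves had a negative log2 fold change, and 2 were called lower. The eGFP row stood at 6669 and 3204 CPM in the Hes1-derived and at 9264 and 6754 CPM in the Fgfr3-derived libraries. It was not called (log2 fold change −0.70, adjusted p = 0.35). Scaled to the geometric mean of the 12 reticular stroma genes, only Etv4 of the 10 was called lower, where 0.691% of all genes were, and the median of all tested genes moved to 0.54. The median of the 10 was then −0.57. Scaled to eGFP reads, again only Etv4 was called lower, where 0.133% of all genes were, with medians of 0.83 for all tested genes and −0.34 for the 10. Among all tested genes 723 were higher and 99 lower under stroma scaling, and 324 higher and 19 lower under eGFP scaling. Leaving out Hes1-derived replicate 3 or Fgfr3-derived replicate 2 also left Etv4 as the only call among the 10.

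**Figure D2:**
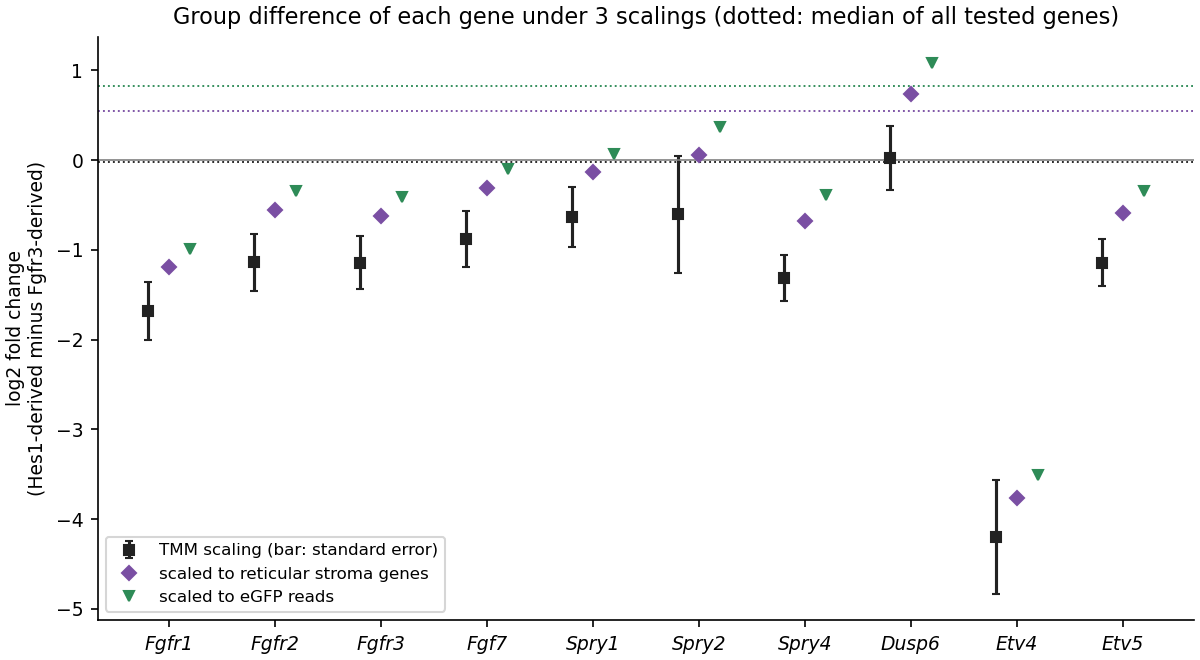
Log2 fold change (Hes1-derived minus Fgfr3-derived) of each gene with trimmed-mean (TMM) scaling and its standard error, scaled to reticular stroma genes, and scaled to eGFP reads, with the median of all tested genes under each scaling as a dotted line. Etv4 lies between −4.20 and −3.51 under all 3 scalings, and Dusp6 lies between 0.02 and 1.08.

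Fgfr1, a receptor of mesenchymal cells (chromosome 8, positions 25513654 to 25575718, GRCm38), stood at 82.3 CPM in replicate 1 and 42.6 CPM in replicate 3 of the Hes1-derived cells, and at 214 CPM in replicate 2 and 188 CPM in replicate 3 of the Fgfr3-derived cells. Values are given in this order below. Both Fgfr3-derived libraries were more than 2-fold above the higher Hes1-derived library. The log2 fold change was −1.69 ± 0.32 (SE, 2 libraries a group; adjusted p = 0.025). Per 1000 eGFP reads, which do not depend on the scaling of the libraries, Fgfr1 had 12.3 and 13.3 reads against 23.1 and 27.8, and the groups still did not overlap. The call ended when Hes1-derived replicate 3 (−1.29, p adjusted to 0.067) or Fgfr3-derived replicate 2 (−1.58, p adjusted to 0.060) was left out, and after scaling to stroma (−1.19, adjusted p = 0.25) or to eGFP (−0.99, adjusted p = 0.45).

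Fgfr2 (chromosome 7, positions 130162451 to 133123350), whose splice forms for epithelial and mesenchymal ligands a gene count does not separate, had 395 and 268 CPM against 888 and 575 CPM. The groups did not overlap, and Fgfr3-derived replicate 2 was the highest. With −1.14 ± 0.32 (adjusted p = 0.060) it was not called, while DESeq2 (adjusted p = 0.0028), limma-voom (adjusted p = 0.047), the stricter filter (adjusted p = 0.047) and the fit without Fgfr3-derived replicate 3 (adjusted p = 0.030) called it lower. Over the 15 alternatives its adjusted p ran up to 0.77, under eGFP scaling. The annotated span of Fgfr2 takes in exons that share 314 bases with Ctbp2 on the same strand. RefSeq's promoter window for Fgfr2 lies inside that span, at positions 130266759 to 130267058.

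Fgfr3 (chromosome 5, positions 33721674 to 33737068) was measured at 92.7 and 53.3 CPM compared with 176 and 147 CPM, with no overlap. Its log2 fold change of −1.14 ± 0.29 just passed (adjusted p = 0.049) and equalled that of Fgfr2 to 2 decimals. The call ended with non-robust dispersions (adjusted p = 0.0503), on leaving out Hes1-derived replicate 3 (−0.80, p adjusted to 0.20) or Fgfr3-derived replicate 2 (−0.99, p adjusted to 0.13), and under stroma (−0.63) and eGFP scaling (−0.41). Per 1000 eGFP reads the values were 13.9 and 16.6 against 19.0 and 21.7, closer than in CPM but without overlap. Only the Fgfr3-derived group carries a Cre driven by Fgfr3, so the transgene and the origin cannot be told apart for this gene. The iCre-ERT2 row had 24.4 and 16.3 CPM against 95.4 and 74.7 CPM. Exons of Fgfr3 share 998 bases with G630022F23Rik on the opposite strand, and the strand setting of the counts is not given in the sources used here. Opposite-strand genes also share 710 exon bases with Spry1 (Gm42922) and 164 with Fgfr1 (Gm16159). RefSeq's table holds 2 promoter windows for Fgfr3, the gene that drives the Cre, and the upstream window is shown (GRCm38.p6, chr5:33721474-33721773, plus strand, 69.7% G or C):

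Fgfr3: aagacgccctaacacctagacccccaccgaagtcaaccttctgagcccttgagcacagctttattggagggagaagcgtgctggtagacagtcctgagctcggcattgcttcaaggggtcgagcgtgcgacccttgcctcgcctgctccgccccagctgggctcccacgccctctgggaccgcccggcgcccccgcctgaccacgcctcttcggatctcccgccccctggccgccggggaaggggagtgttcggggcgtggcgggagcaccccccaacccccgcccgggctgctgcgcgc

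Proportions of the 3 receptors within a library do not depend on scaling. Divided by the length of their annotated exons and summed, the receptors stood at 59.6 and 37.7 CPM per kilobase compared with 132 and 95.2. Fgfr2 made up most of this in every library, at 64.3% and 68.8% against 65.0% and 58.5%. Fgfr3 made up 21.7% and 19.7% against 18.6% and 21.5%, so that its share overlapped between the groups although the gene itself was called lower. The Fgfr1 share was 13.99% and 11.4% against 16.4% and 20.0%, lower in both Hes1-derived libraries. The difference in the Fgfr1 share was −5.48 percentage points (exact permutation test over libraries, two-sided p = 0.333, the smallest that 2 against 2 libraries allow). For Fgfr2 the difference was 4.80 and for Fgfr3 0.68 percentage points (exact p = 0.667 for each). Whether Fgfr3 or Fgfr1 was the higher depended on the length used. Fgfr3 exceeded Fgfr1 in all 4 libraries with the union of exons, and in only the Hes1-derived libraries with the longest transcript.

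**Figure D3:**
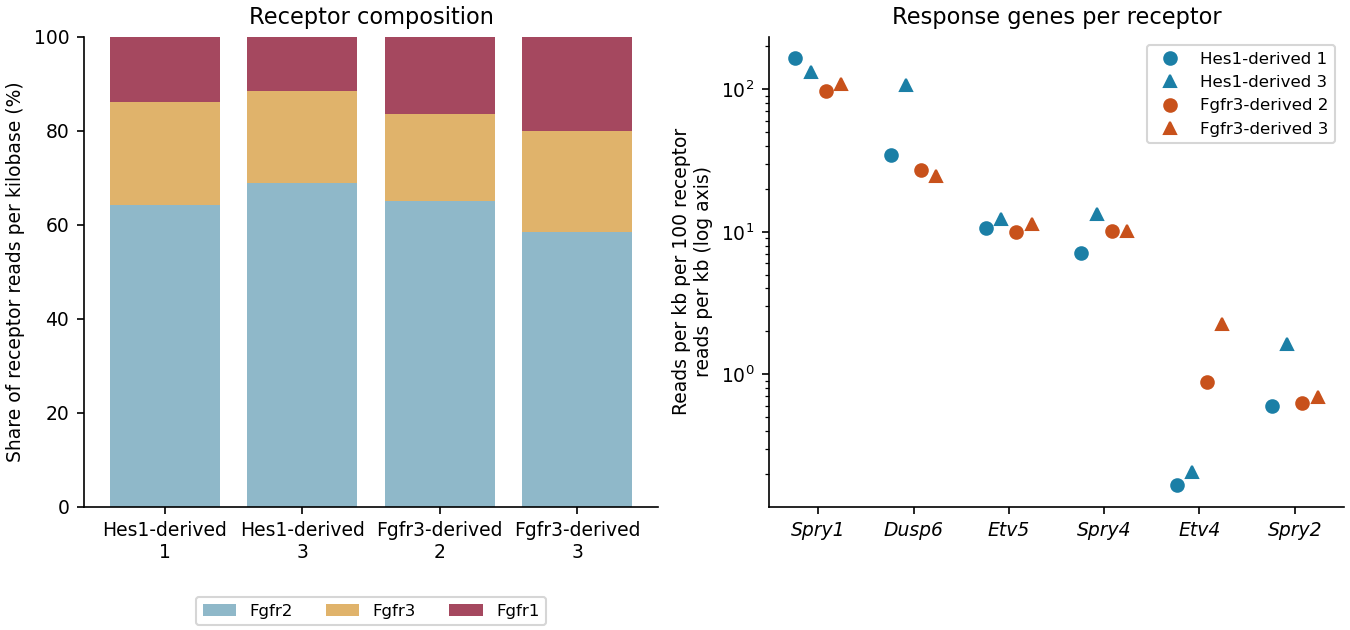
Left, the share of Fgfr1, Fgfr2 and Fgfr3 in their summed reads per kilobase, 1 bar per library. Right, reads per kilobase of 6 response genes for each 100 receptor reads per kilobase, on a log axis, 1 point per library, where Etv5 stays between 10.0 and 12.2 and Etv4 is lower in both Hes1-derived libraries.

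Fgf7 (chromosome 2, positions 126034658 to 126091185), a ligand made by mesenchymal cells that acts on the epithelial form of Fgfr2, had 74.4 and 45.9 CPM against 135 and 86.7 CPM. The groups did not overlap, but the difference of −0.88 ± 0.32 did not pass (adjusted p = 0.11). Per 1000 eGFP reads Fgf7 had 11.2 and 14.3 against 14.5 and 12.8 reads, and the groups overlapped.

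Etv4 (chromosome 11, positions 101769742 to 101785371), an ETS factor induced by FGF signalling, was nearly absent from the Hes1-derived libraries. It had 7 reads in replicate 1 (95% exact Poisson interval 2.81 to 14.4) and 6 in replicate 3 (2.202 to 13.1), or 0.31 and 0.24 CPM. The Fgfr3-derived libraries had 92 reads in replicate 2 (74.2 to 113) and 173 in replicate 3 (148 to 201), or 3.63 and 6.61 CPM. These intervals cover counting error only. The log2 fold change was −4.20 ± 0.63 (adjusted p = 0.017), and it was called lower in all 14 alternatives that tested it, with values from −4.55 to −3.51. The stricter filter, 1 CPM in every library, removed Etv4. The alternatives reuse the same counts, in which Etv4 passed the main filter only through the Fgfr3-derived group, so they are not independent support. On the regularized log2 scale that the authors deposited, which draws low counts together, the difference was only −1.22. Even in Fgfr3-derived cells Etv4 was a low-level gene, at 1.17 and 2.13 CPM per kilobase against 13.2 and 10.8 for Etv5.

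Etv5 (chromosome 16, positions 22381309 to 22439719), the close relative of Etv4, had 25.8 and 18.9 CPM against 54.3 and 44.3 CPM. The groups did not overlap in CPM (−1.14 ± 0.26, adjusted p = 0.035). For each 100 receptor reads per kilobase, Etv5 had 10.5 and 12.2 against 10.0 and 11.3 and overlapped between the groups. Etv4 on that scale had 0.17 and 0.21 against 0.88 and 2.24 and did not overlap. The Etv5 call ended on leaving out Hes1-derived replicate 3 (−0.93, p adjusted to 0.18) or Fgfr3-derived replicate 2 (−0.97, p adjusted to 0.12), and under stroma (−0.59) and eGFP scaling (−0.35).

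Spry4 (chromosome 18, positions 38586247 to 38601415), a Sprouty inhibitor, had 20.2 and 23.9 CPM against 64.1 and 45.8 CPM. The groups did not overlap (−1.32 ± 0.26, adjusted p = 0.026). Per 1000 eGFP reads, however, Spry4 had 3.03 and 7.47 against 6.92 and 6.79 reads, and Hes1-derived replicate 3 was the highest. The call ended on leaving out Hes1-derived replicate 1 (−1.20, p adjusted to 0.070), Hes1-derived replicate 3 (−1.44, 0.074) or Fgfr3-derived replicate 2 (−1.04, 0.093), and under both the stroma (−0.68) and the eGFP scaling (−0.39).

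Spry1 (chromosome 3, positions 37639947 to 37644598) was the most abundant of the 10 genes per kilobase in every library, with the union of exons as length. This rank depends on the length used. The union is 10.33 kb for Fgfr2 and 2.91 kb for Spry1, while the longest transcripts are 4.43 and 2.77 kb. Spry1 had 286 and 146 CPM against 372 and 300.4 CPM, and Hes1-derived replicate 1 lay close under Fgfr3-derived replicate 3. The difference of −0.64 ± 0.33 did not pass (adjusted p = 0.25), and per 1000 eGFP reads all libraries lay between 40.1 and 45.5. For each 100 receptor reads per kilobase Spry1 reached 165 and 133 compared with 96.7 and 108.6, the opposite order to Etv4 on that scale. Dusp6 was also higher there, at 34.5 and 106 against 27.3 and 24.7. By the exact permutation test p was 0.333 for Spry1, Dusp6 and Etv4 alike, the smallest that 2 against 2 libraries allow. The receptor sum that divides these values was itself lower in both Hes1-derived libraries. Spry2 (chromosome 14, positions 105891947 to 105896819) had only 17 and 32 reads against 44 and 36, and with −0.61 ± 0.65 (adjusted p = 0.59) no difference was detectable at this depth.

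Dusp6 (chromosome 10, positions 99263231 to 99267489), the ERK phosphatase, was the only gene of the 10 whose groups overlapped in CPM. Hes1-derived replicate 3 was highest at 126 CPM and replicate 1 lowest at 64.3 CPM, with Fgfr3-derived replicates 2 and 3 between them at 113 and 73.7 CPM. The difference was 0.02 ± 0.36 (95% interval −0.81 to 0.86, adjusted p = 0.97), an interval that takes in changes of more than 1.5-fold either way. Without Hes1-derived replicate 3 the value was −0.54, and without Hes1-derived replicate 1 it was 0.43. The libraries high in Dusp6 were also those high in chondrocyte markers. The 9 chondrocyte markers summed to 626 and 2212 CPM compared with 3654 and 499.6 CPM, of which the cartilage collagen Col2a1 made 523 and 1951 against 3163 and 410 CPM. None of the 9 was called by edgeR, 1 was lower at an unadjusted p under 0.05, and DESeq2 called none. Within both groups the same library was the higher for Spry2, Spry4 and Dusp6 as for the chondrocyte markers, and this was not so for the other 7 genes. The share of all tested genes with this order was not counted, so it is a description only. Genes outside cartilage can have the order too. Of the reticular stroma markers Kitl had it, at 249 and 293 against 592 and 195 CPM, and Cxcl12 did not. The part of chondrocyte RNA in the Dusp6 values was not tested.

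**Figure D4:**
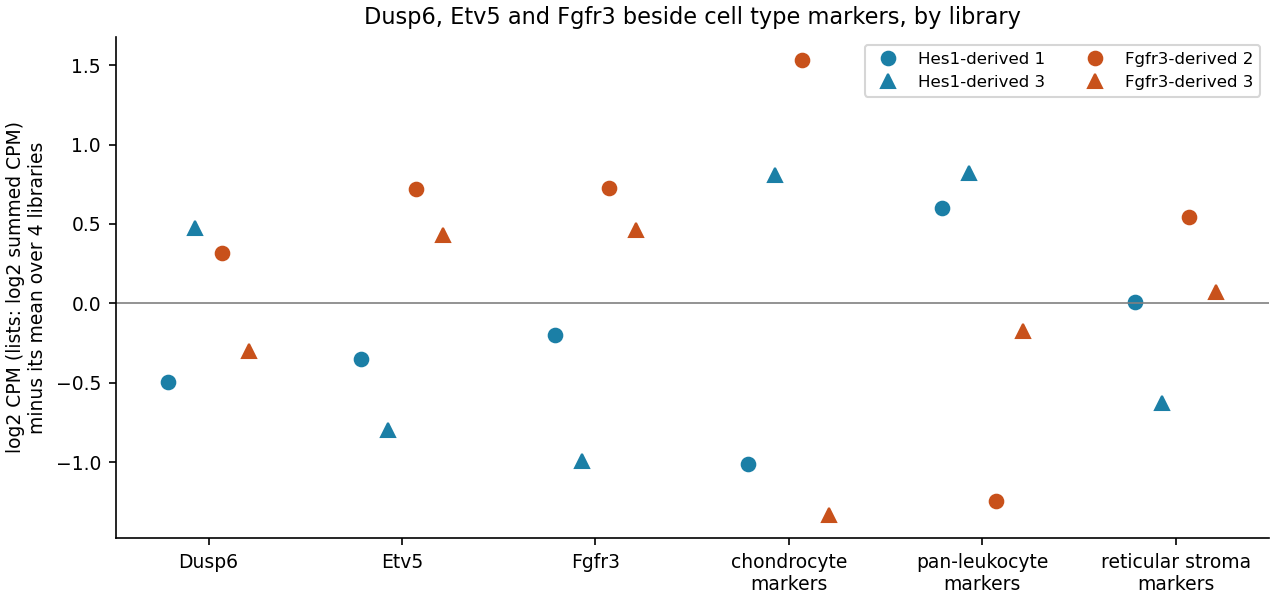
Log2 CPM of Dusp6, Etv5 and Fgfr3 and log2 summed CPM of 3 marker lists, each minus its mean over the 4 libraries, 1 point per library. Dusp6 and the chondrocyte markers are both above their means in Hes1-derived replicate 3 and Fgfr3-derived replicate 2, while Etv5 and Fgfr3 are above theirs in the Fgfr3-derived libraries.

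Promoter windows of 300 bases around a start were in RefSeq's table for 7 of the 10 genes, with 9 windows. They were searched on both strands for the ETS core CCGGAA and for the octamers TGAATGAA, TGAATGGA, TCAATGAA and TCAATGGA bound by Capicua, a repressor of ETS genes that ERK signalling inactivates. The last 2 octamers were added after the windows had been looked at. Of all 32851 windows in the table, 14.9% held the ETS core and 3.84% an octamer. Matches were found for Dusp6, with TCAATGGA at 2 places, and Spry2, with CCGGAA and TCAATGAA once each, neither of which was called. TGAATGAA and TGAATGGA matched no searched window, so every octamer match was to an octamer added later. Alone, TCAATGAA was in 0.749% and TCAATGGA in 0.67% of all windows. These 2 windows are shown with matches in capitals (those on the other strand read as their reverse complement), beside Etv5, a called gene with no match in either of its 2 windows, at its gene start. A match is a description and not a binding site. The windows lie at chr10:99262981-99263280 on the plus strand for Dusp6, and on the minus strand at chr14:105896770-105897069 for Spry2 and chr16:22439521-22439820 for Etv5 (GRCm38.p6).

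Dusp6: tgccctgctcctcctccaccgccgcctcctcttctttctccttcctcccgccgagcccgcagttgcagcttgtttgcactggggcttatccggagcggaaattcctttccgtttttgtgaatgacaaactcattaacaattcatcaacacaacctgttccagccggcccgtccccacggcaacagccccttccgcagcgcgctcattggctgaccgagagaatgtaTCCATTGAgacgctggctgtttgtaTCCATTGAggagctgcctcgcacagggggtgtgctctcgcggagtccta

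Spry2: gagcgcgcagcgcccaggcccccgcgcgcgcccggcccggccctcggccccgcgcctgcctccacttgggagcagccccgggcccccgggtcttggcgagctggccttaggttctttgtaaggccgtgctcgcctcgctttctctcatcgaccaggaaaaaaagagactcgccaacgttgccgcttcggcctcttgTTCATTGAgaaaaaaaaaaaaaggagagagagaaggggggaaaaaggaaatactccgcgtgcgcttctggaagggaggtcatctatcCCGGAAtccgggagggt

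Etv5: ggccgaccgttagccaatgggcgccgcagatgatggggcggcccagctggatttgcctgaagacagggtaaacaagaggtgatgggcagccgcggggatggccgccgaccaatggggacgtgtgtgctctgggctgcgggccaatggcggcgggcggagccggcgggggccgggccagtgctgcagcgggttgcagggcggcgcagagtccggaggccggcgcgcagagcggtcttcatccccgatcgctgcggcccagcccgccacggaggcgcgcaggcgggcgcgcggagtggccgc

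The other genes of the pathway were read from a list of 77, of which 66 had a row and 51 were tested. Of these 51, 9 were lower (17.6%) and none was higher, at a median of −0.55. A negative log2 fold change was seen for 39 (76.5%), as for 51.5% of all tested genes. The 39 include Spred3, not called, which passed the filter only through the Fgfr3-derived group (2 and 9 reads against 24 and 20). At an unadjusted p under 0.05, 19 of the 51 were lower and 1 was higher (16.3% and 13.7% of all tested genes), and DESeq2 called 15 lower and none higher (10.9% and 9.97% of all tested genes). The shares over all genes are the same for the lists below. Scaled to stroma or to eGFP none of the 51 was lower by edgeR, with 3 and 0 at an unadjusted p under 0.05 (3.2% and 1.19% of all tested genes) and medians of 0.00 and 0.24. The count of 9 became 2 when Hes1-derived replicate 3 was left out, 3 when Fgfr3-derived replicate 2 was, 6 when Hes1-derived replicate 1 was, and 12 when Fgfr3-derived replicate 3 was.

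Few ligands were measurable. Of 21 other FGF genes 14 had a row and 3 were tested. Fgf18, a ligand that regulates chondrocytes and bone formation, was lower, with 20 and 14 reads against 82 and 114 (−2.39 ± 0.58, adjusted p = 0.042). Among receptors and co-receptors, 1 of 6 tested was lower: Cdh2, the N-cadherin that can bind FGF receptors, stood at 196 and 134 compared with 663 and 448 CPM (−1.75 ± 0.30, adjusted p = 0.020). Fgfrl1, a receptor without a kinase domain, did not pass (−0.86 ± 0.29, adjusted p = 0.095). Fgfr4 had 19 and 6 reads against 0 and 0, and Klb, a co-receptor for endocrine FGFs, had 0 and 0 against 55 and 6. Neither passed the filter, and 0 reads allow up to about 3 by a one-sided 95% limit, unlike the two-sided intervals given for Etv4.

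Among the transducers between receptor and ERK, of 22 tested, 1 was lower (4.55%) and none was higher, at a median of −0.02, and at an unadjusted p under 0.05, 4 were lower and 1 was higher. DESeq2 called 3 lower and none higher. Gab1, an adaptor of receptor tyrosine kinases, stood at 54.7 and 62.2 compared with 172 and 134 CPM (−1.39 ± 0.22, adjusted p = 0.019).

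Among other feedback and target genes, 6 of 20 tested were lower and none was higher, at a median of −0.79, and at an unadjusted p under 0.05, 10 were lower and none higher. DESeq2 called 7 lower and none higher. Phlda1 stood at 95.6 and 95.2 compared with 261 and 216 CPM (−1.32 ± 0.21, adjusted p = 0.019). Fosl1, an AP-1 factor induced by ERK, had 4.44 and 11.4 against 35.2 and 34.0 CPM (−2.12 ± 0.44). Lrig1, an inhibitor of growth factor receptors (−1.69 ± 0.30), and the transcription factor Bhlhe40 (−1.31 ± 0.29) were lower as well. Etv1, the third member of the Etv4 and Etv5 family, had 9.32 and 7.86 against 29.1 and 17.7 CPM (−1.44 ± 0.34, adjusted p = 0.038), and Spred1, a Sprouty-related inhibitor, had 23.2 and 25.7 against 66.0 and 40.6 CPM (−1.13 ± 0.29, adjusted p = 0.047). These last 2 were also past the test, beyond the 4 the naming rule takes.

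Of 23 other receptor tyrosine kinases tested, 1 was lower (Ret, −1.82 ± 0.40, adjusted p = 0.032) and 1 higher (Csf1r, the receptor of macrophage growth factor, 1.21 ± 0.30, adjusted p = 0.044). At an unadjusted p under 0.05, 9 were lower and 5 higher, while with DESeq2 8 passed as lower and 3 as higher. The list had a median of −0.65, and whether the FGF receptors differed more than these was not tested.

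**Figure D5:**
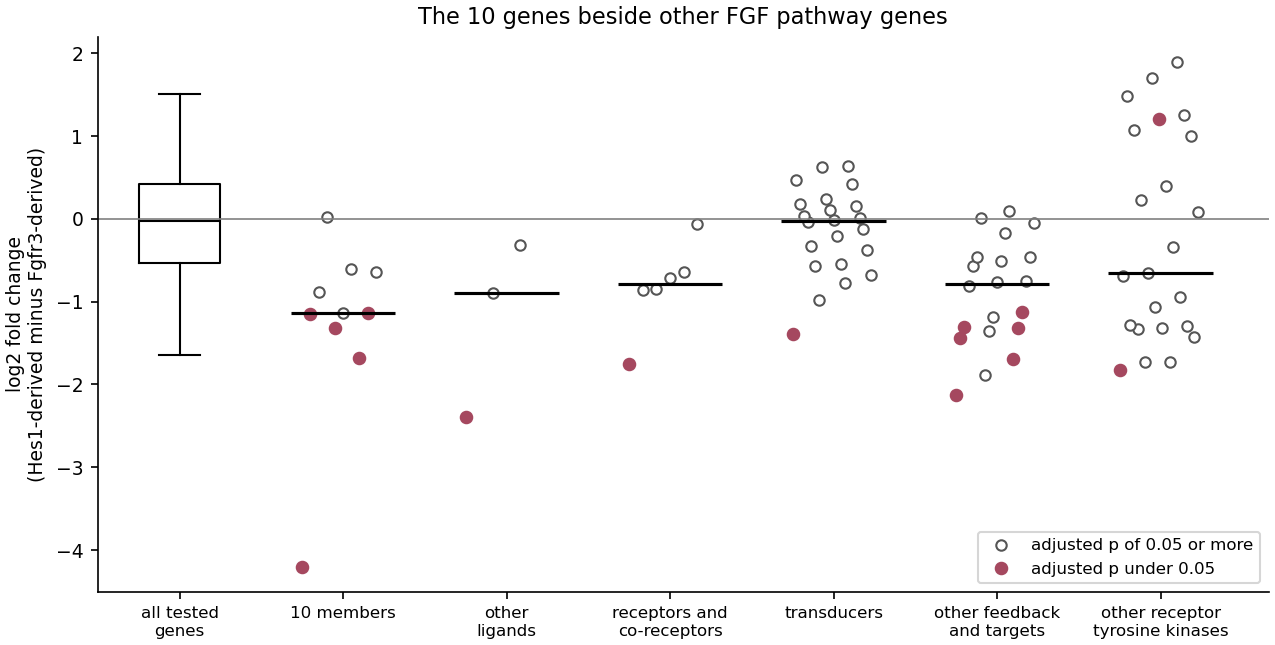
Log2 fold change (Hes1-derived minus Fgfr3-derived) of the 10 genes and of 5 other lists, 1 point per gene, filled at an adjusted p under 0.05, with each list's median as a line. The box shows all tested genes with quartiles and whiskers to the 5th and 95th percentiles, and the transducers have a median of −0.02 while the 10 genes have one of −1.14.

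The genes most like Fgfr1, Fgfr3 and Etv4 across libraries were taken from 9766 genes of at least 10 CPM, by the root mean square distance of centred log2 CPM over the 4 libraries. A small constant was added to CPM before the log, which draws low levels such as those of Etv4 together. Nearest to Fgfr1 were Ccdc80 (distance 0.027), Tgfb1i1 (0.041) and Srpx2 (0.058), and 11 genes lay within 0.1. Nearest to Fgfr3 were Islr (0.027), Tspan17 (0.031) and Cpt1c (0.035), with 43 genes within 0.1. Nearest to Etv4 were Kank1 (0.17), D4Bwg0951e (0.19) and Sdc3 (0.19), and none lay within 0.1. Their log2 fold changes were −3.12, −2.96 and −2.59, smaller than the −4.20 of Etv4, which itself lay under 10 CPM in every library. With 4 libraries such likeness is a description only.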

How the data were processed

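RNA of sorted cells was measured in 4 libraries. The deposited counts are whole read numbers per gene symbol. Per the submitters' processing notes, reads were handled with tools that include HTSeq, DESeq2, Bowtie2 2.2.1 and TopHat2 2.0.13, on mm10; FastQC and the Cufflinks suite are also named, and no roles or order are given. The annotation and strand setting are not given in the sources used here. The deposited signal values are those counts times 1 constant per library (0.937 to 1.08), and the deposited log2 values are, by the file's name, a regularized log2 of them. No per-sample column was left unused (0).

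Groups were compared with the quasi-likelihood test of edgeR 4.0.16 (R 4.3.3; minimum count 10, TMM factors, robust dispersions), with Benjamini-Hochberg adjustment over 14330 genes. The SE of a log2 fold change is its size divided by the root of F. Tested genes held 99.96% of reads, and the biological coefficient of variation was 27.8%. The scripts were tested on simulated data. Alternatives were RLE, upper-quartile, library-total, stroma and eGFP scaling, DESeq2 1.42.0, limma-voom and limma-trend (limma 3.58.1; log2 of the signal plus 1), other filters, non-robust dispersions, an adjusted p under 0.10 and leaving out each library. Positions and exon lengths came from GENCODE (GRCm38), whose symbols matched all 10 genes. The lists held 176 entries, 14 of them without a row and 2 found under older symbols. Named genes were the 10, up to 4 called members of each list and direction by smallest p (else the 2 most abundant), and the nearest genes. Other genes were named after their values were seen. The genes and lists were chosen with earlier results of these data known.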

Additional observations from a re-analysis of the deposited data

How the results depend on the processing

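Over the alternatives for the 10 genes, 120 values kept direction and call, many of them of genes with no call to lose. The 18 lost calls were of Fgfr1, Fgfr3, Spry4 and Etv5, the 4 gained were of Fgfr2, and 6 values turned direction. The 5 genes lower became 1 under stroma scaling, 1 under eGFP scaling, and 1 to 6 when a library was left out. The 9 wider pathway genes lower became 0 under stroma and 0 under eGFP scaling, 15 with DESeq2, 15 at an adjusted p under 0.10, and 2 to 12 without a library. The 1691 genes called became 822, 343, 2986 and 3075 in the same order, and 424 (without Hes1-derived replicate 3) to 2223 without a library, with 484 without Fgfr3-derived replicate 2. The cause was not tested. Only uncalled genes turned direction: Dusp6 to −0.019 with limma-voom and −0.54 to 0.43 without a library, Spry1 to 0.063 under eGFP scaling, and Spry2 to 0.052 and 0.37 under stroma and eGFP scaling, which move the median of all genes to 0.54 and 0.83. The difference in the Fgfr3 share of receptor reads ran from −0.79 to 2.15 percentage points without a library. No paired analysis was possible because the groups share only replicate number 3. Depth limits Etv4 in Hes1-derived cells and Spry2, with 6 to 44 reads a library.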
